A study of Rattus norvegicus with 4 samples.

Results

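The spots described here were those in a puromycin-injured rat kidney section in which Serpine2, Pla2g2a and Alx1 together took the largest share of the RNA. In the PAN section, 2607 of 2729 spots held at least 3000 UMIs (unique molecular identifiers, which count captured RNA molecules), and these were ranked by the UMIs of the 3 genes divided by all UMIs of the spot. The top 10.0%, 261 spots, were selected and set against the other 2346 PAN spots, and the series held 10383 spots in all. The 3 genes were left out of every comparison of genes. A working label had named these spots injured outer stripe. The injury genes did not separate them from the rest of the section. The outer stripe genes were higher spot by spot, but none passed 1.5-fold in the pooled counts. The spots are therefore called here the Serpine2, Pla2g2a and Alx1 rich spots, or the selected spots.

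The assay was 10x Visium on kidney sections 10 µm thick, in which each spot is a small patch of tissue in which cells of more than 1 type can lie. All rats were Sprague-Dawley. The PAN rat had received puromycin aminonucleoside, a podocyte toxin used to model nephrotic kidney disease, and was fed ad libitum. The PAN_LS-FMD rat had the same injection and then LS-FMD, a fasting-mimicking diet low in salts, for 6 cycles. Both were examined 5 months after the injection, which the study's design gives as 6 weeks after treatment. The healthy_LS-FMD rat had no injection and was examined 72 h into refeeding after a single diet cycle. The healthy rat had no treatment. Each group was 1 section, so no comparison has a replicate, no p-value is given, and section, animal and condition cannot be told apart. The ages of the rats were not given in the labels.

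The outer stripe of the outer medulla holds the straight last segment of the proximal tubule, S3, beside the thick ascending limb, while the convoluted segments S1 and S2 and the distal convoluted tubule lie in the cortex. Serpine2 encodes protease nexin-1, a secreted serpin that inhibits thrombin, plasmin and urokinase. Pla2g2a encodes a secreted phospholipase A2 that releases fatty acids from phospholipids and is an acute phase gene in many tissues. Alx1 encodes a paired-type homeobox transcription factor known for its part in craniofacial development. After tubular injury, epithelial cells are known to switch on Havcr1 (kidney injury molecule 1), Lcn2 and Spp1 and to lose transporter genes.

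The sequences before the start sites of the 3 selecting genes are shown because these genes chose the spots. They are the 250 bases before each start, 5′ to 3′ on the gene's strand, from RefSeq on GRCr8. Capitals would mark a CArG box, the motif bound by serum response factor at contractile genes, since contractile genes were among those with the highest ratios. The box was searched as CCWWWWWWGG, with W for A or T and no mismatch allowed.
Serpine2, chr9:88637203-88637452, minus strand: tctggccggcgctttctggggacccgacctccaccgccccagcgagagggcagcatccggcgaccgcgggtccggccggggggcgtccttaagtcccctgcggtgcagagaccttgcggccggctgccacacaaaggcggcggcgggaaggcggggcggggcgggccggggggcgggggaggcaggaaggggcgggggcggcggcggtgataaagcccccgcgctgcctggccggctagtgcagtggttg
Pla2g2a, chr5:156359475-156359724, plus strand: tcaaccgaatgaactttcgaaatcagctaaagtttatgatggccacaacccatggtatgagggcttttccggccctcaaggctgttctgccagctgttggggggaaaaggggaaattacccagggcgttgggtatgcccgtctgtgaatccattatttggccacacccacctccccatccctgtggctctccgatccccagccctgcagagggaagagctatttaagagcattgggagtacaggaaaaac
Alx1, chr7:40063779-40064028, minus strand: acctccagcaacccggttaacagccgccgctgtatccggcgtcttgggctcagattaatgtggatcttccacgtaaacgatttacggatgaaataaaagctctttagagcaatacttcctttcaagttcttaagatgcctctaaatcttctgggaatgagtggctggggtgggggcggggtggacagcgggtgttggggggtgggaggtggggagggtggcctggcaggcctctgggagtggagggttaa
The CArG box, read on both strands, stood in 1.497% of the 33469 windows of this length. In this strict form it stood in none of the 3 windows of the selecting genes. Nor did it stand in any of the 5 smooth muscle and mesangial genes that had a window. These were Acta2, Des, Cnn1, Itga8 and Rgs5, while Myh11 and Myl9 had no window and were not searched. Sequences off by a single base were not counted. Examples are ccctatatgg and ccttgtttgg in the Acta2 window, and the overlapping ccattatttg and cattatttgg in the Pla2g2a window. A match is a description of letters, not of binding, and no match says only that these letters are not in this window.

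The values that chose the spots give the size of the cutoff. Selected spots held 2 to 18 UMIs of the 3 genes, with a median of 4. Other PAN spots held at most 9, with a median of 1, and 769 of them (32.8%) held none. Per 1000000 UMIs of the spot, the share was 606 at the median of the selected spots and 120 at the median of the others. The last selected spot stood at 462.48 and the first spot left out at 462.21, so the boundary is a cut through a continuous range. The 10 spots just inside averaged 465 and the 10 just outside averaged 460 (459.56 before rounding).

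Serpine2 supplied most of the signal. It had 807 UMIs in 241 selected spots, against 2308 UMIs in 1343 other PAN spots, or 437 and 101 CPM (UMIs of the gene per 1000000 UMIs of the pooled spots). Pla2g2a was seen in 126 selected spots and 369 others, at 180.0 and 19.1 CPM. Alx1 was seen in 94 selected spots and 297 others, at 66.1 and 14.9 CPM. Of the selected spots, 36 held all 3 genes, 128 held 2 and 97 held 1, which was Serpine2 in 81, Pla2g2a in 15 and Alx1 in 1. With every PAN spot reduced at random to 3000 UMIs, the Spearman correlation across 2607 spots was 0.03 for Serpine2 with Pla2g2a, 0.10 for Serpine2 with Alx1 and 0.00084 for Pla2g2a with Alx1. These counts are sparse and no association is read from them.

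Selected spots were shallower. The median was 6571 UMIs and 3091 genes in selected spots, against 8984 UMIs and 3564 genes in the others. Mitochondrially encoded genes took a median of 1.93% of UMIs in selected spots and 2.53% in the others. The part of depth in the results was tested by weighting the other PAN spots to the UMI distribution of the selected ones, an alternative added after seeing the data.

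**Figure D1:**
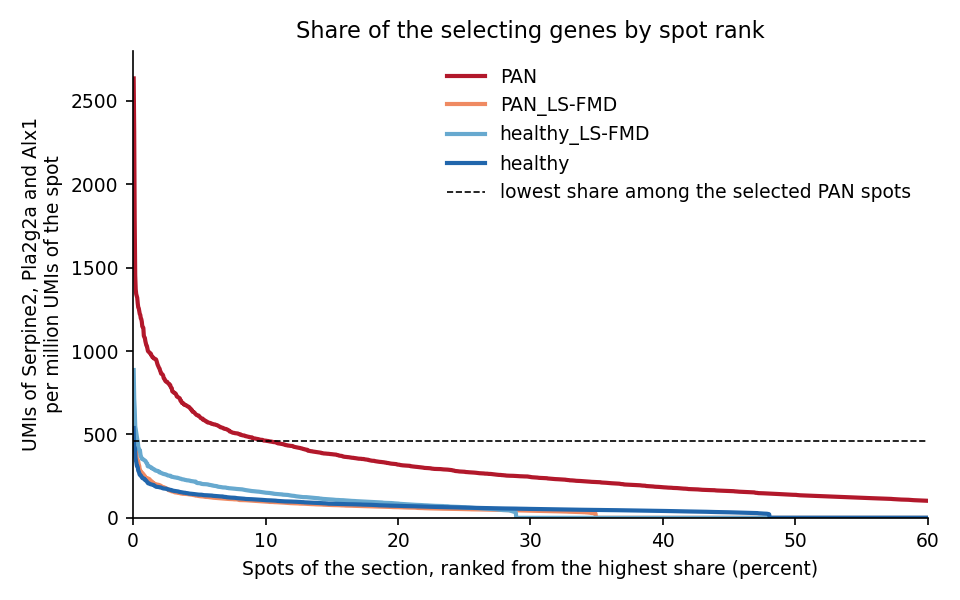
Share of Serpine2, Pla2g2a and Alx1 UMIs in each spot (per 1000000 UMIs, y axis) against the rank of the spot in its section (percent of spots, x axis) for the 4 sections. The dashed line is the lowest share among the 261 selected PAN spots, which 4 PAN_LS-FMD spots, 8 healthy_LS-FMD spots and 1 healthy spot also reached.

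The selected spots carried less of the cortical tubule than the other PAN spots. UMIs were pooled over each set, a gene counted as measured at 100 UMIs over both sets, and as higher or lower at a ratio of at least 1.5. Of 9843 measured genes, 505 (5.13%) were higher and 354 (3.6%) were lower in the selected spots, and the median log2 ratio of all genes was 0.08. Intervals are exact 95% intervals of 2 counts and cover counting error only. With the other PAN spots weighted to the depth of the selected spots, 267 genes were higher.

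Of 19 measured genes of the proximal tubule S1 and S2 list, 13 were lower and none was higher, with a median log2 ratio of -1.20. Slc22a8, an organic anion transporter, stood at 85.1 CPM in selected spots and 306 CPM in the others, 3.59-fold lower (3.07 to 4.24). Slc5a2, the SGLT2 glucose transporter of the early proximal tubule, stood at 77.5 and 230.4 CPM, 2.97-fold lower (2.52 to 3.53). Slc6a19, a neutral amino acid transporter, was at 21.7 CPM in selected spots and 69.5 CPM in the others. All 19 ratios were below 1, down to the smallest difference, which was Hnf4a at 217 CPM in selected spots and 273 CPM in the others. Slc34a1, the main phosphate transporter, was 1.601-fold lower at 1371 CPM in selected spots, against 2195 CPM in the others. In spots, fewer cells of a type and less RNA per cell cannot be told apart.

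The lower level was spread over the selected spots. The summed share of the list had a median of 5874 ppm (UMIs per 1000000 of the spot) in selected spots and 9044 in the others, and 45 of 261 selected spots (17.2%) lay above the median of the others. Of the 261, 3 were among the 261 PAN spots richest in the list, a set that is 10.0% of the ranked spots. With the PAN spots cut along the ranking into 10 groups of like size, the list was higher in each step of the first 8 groups, at 6678 CPM in the selected group, 8178 CPM in the next and 13578 CPM in group 8.

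The distal convoluted and connecting tubule gave the lowest median of the lists with at least 4 measured genes, at -1.61, with 3 of 4 genes lower. Slc12a3, the thiazide-sensitive cotransporter, stood at 35.2 CPM in selected spots and 134 CPM in the others, 3.81-fold lower (2.98 to 4.95). Ranked by Pla2g2a alone, an alternative added after seeing the data, its log2 ratio was -0.20, short of 1.5-fold. Calb1, a calcium-binding protein of these segments, was 2.46-fold lower, and Wnk4, a kinase that regulates the cotransporter, was near equal at 82.9 CPM in selected spots and 86.1 CPM in the others. Klk1c9, of the rat tissue kallikrein family, was the lowest named gene of all, at 53.1 CPM in selected spots and 290.01 CPM in the others, 5.46-fold lower (4.47 to 6.73). It was detected in 29.9% of selected spots and 51.9% of the others.

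Some metabolic genes were lower with the transporters, and others were not. Of 7 gluconeogenesis and glucose transport genes, 4 were lower and the median was -0.60. Pck1, which commits carbon to gluconeogenesis, stood at 119 CPM in selected spots and 368 CPM in the others, 3.10-fold lower. G6pc, the last step of glucose release, was 2.57-fold lower. Of 17 glutathione and antioxidant genes, 2 were lower and none was higher, with a median of 0.05, where 3.6% of all genes were lower. The summed level of this list was 13776 CPM in selected spots and 21603 CPM in the others. Gpx3 stood at 6305 CPM in selected spots with Pla2g2a, 5850 CPM in those without, and 13514 CPM in the other PAN spots. The 10 measured mitochondrially encoded genes all had ratios below 1, with 3 past 1.5-fold and a median of -0.47. Of 17 nuclear oxidative phosphorylation genes, none passed 1.5-fold, with a median of -0.13. Of 14 glycolysis and hypoxia genes, none was lower and 1 was higher. Other low genes were Stra6, the receptor for retinol-binding protein, at 5.42 CPM in selected spots and 22.1 CPM in the others, Slc51a, a subunit of the bile acid and steroid exporter, at 9.22 and 35.8 CPM, and Gldc, a subunit of the glycine cleavage system, at 7.59 and 23.1 CPM. Adtrp, Adh6, Fam151a, Myrf, A4galt and Lpar3 completed the 15 lowest, between 2.97-fold and 3.78-fold lower.

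**Figure D2:**
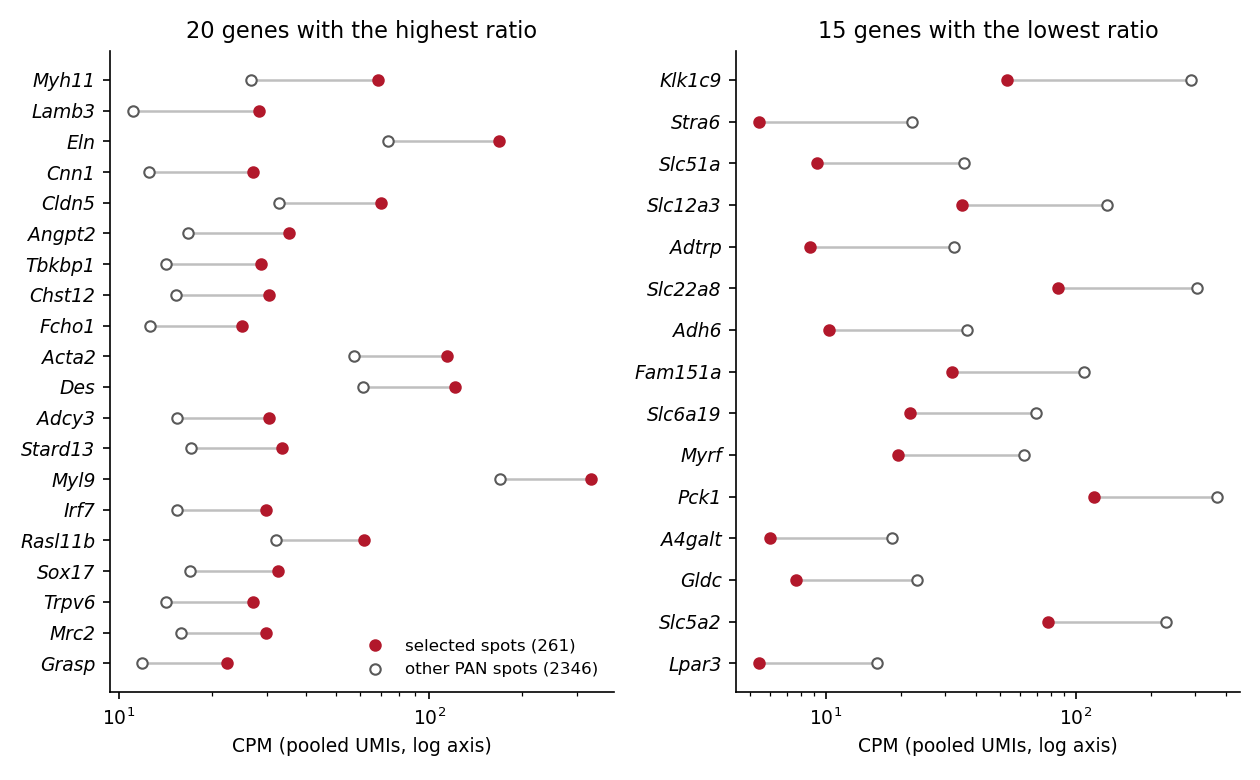
Pooled CPM (log axis) in the 261 selected spots (filled) and the 2346 other PAN spots (open) for the genes at both ends of the range of ratios, 20 at the top and 15 at the bottom, among genes with at least 300 UMIs. Myh11 stood at 68.3 and 26.6 CPM and Klk1c9 at 53.1 and 290.01 CPM in the selected and other spots.

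The outer stripe lists depended on how the spots were counted. Pooled, the proximal tubule S3 list had 9 measured genes, none past 1.5-fold, with a median of 0.07, and the thick ascending limb list had 8, none past 1.5-fold, with a median of 0.18. Ranked by Pla2g2a alone, these medians were -0.18 and -0.0861. Slc7a13, an amino acid transporter that marks S3, stood at 230.4 CPM in selected spots and 251 CPM in the others. Umod, the thick ascending limb protein uromodulin, stood at 6057 CPM in selected spots and 5146 CPM in the others. The thick ascending limb list summed to 7567 CPM in selected spots and 6467 CPM in the others, with 7 of 8 ratios above 1. Spot by spot, the S3 share had a median of 4511 ppm in selected spots and 2702 in the others, and 186 of 261 selected spots (71.3%) lay above the median of the others. The thick ascending limb share had medians of 5825 and 4095, with 198 selected spots (75.9%) above.

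Of the 261 selected spots, 17 (6.51%) were among the 261 richest in S3 genes, where each of these sets is 10.0% of the ranked spots. Along the ranking the S3 list stood at 5902 CPM in the selected group, was highest in group 4 at 7864 CPM and was 3002 CPM in group 10. The highest spot reached 29577 ppm among selected spots and 35323 among the others. Among PAN spots, the genes whose share followed the selecting share most closely were Umod, with a Spearman coefficient of 0.22 over 2607 reduced spots, Tff3 (0.22), Gclc (0.21), Aadat (0.20) and Kap (0.19). The coefficient was lowest for Gpx3, at -0.27. All are weak, and all share the depth and the section of the spots.

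Injury genes were at the level of the rest of the section. Of 24 measured genes of the tubular injury list, 2 were higher and 1 was lower, and the median was 0.24. Havcr1 stood at 214 CPM in selected spots and 219.6 CPM in the others. Spp1, the matrix phosphoprotein osteopontin, stood at 16232 and 17275 CPM, and Lcn2 at 262 and 219 CPM. Krt20 had 0 UMIs in the section, where 3 counts would have been 1.63 CPM in the selected spots. Hbegf, a growth factor, was 1.73-fold higher (1.26 to 2.33). Aoc1, a polyamine and histamine oxidase, was the gene that was lower. The per-spot median of the list was 22972 ppm in selected spots and 22878 in the others, and 52.1% of selected spots lay above that median.

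**Figure D3:**
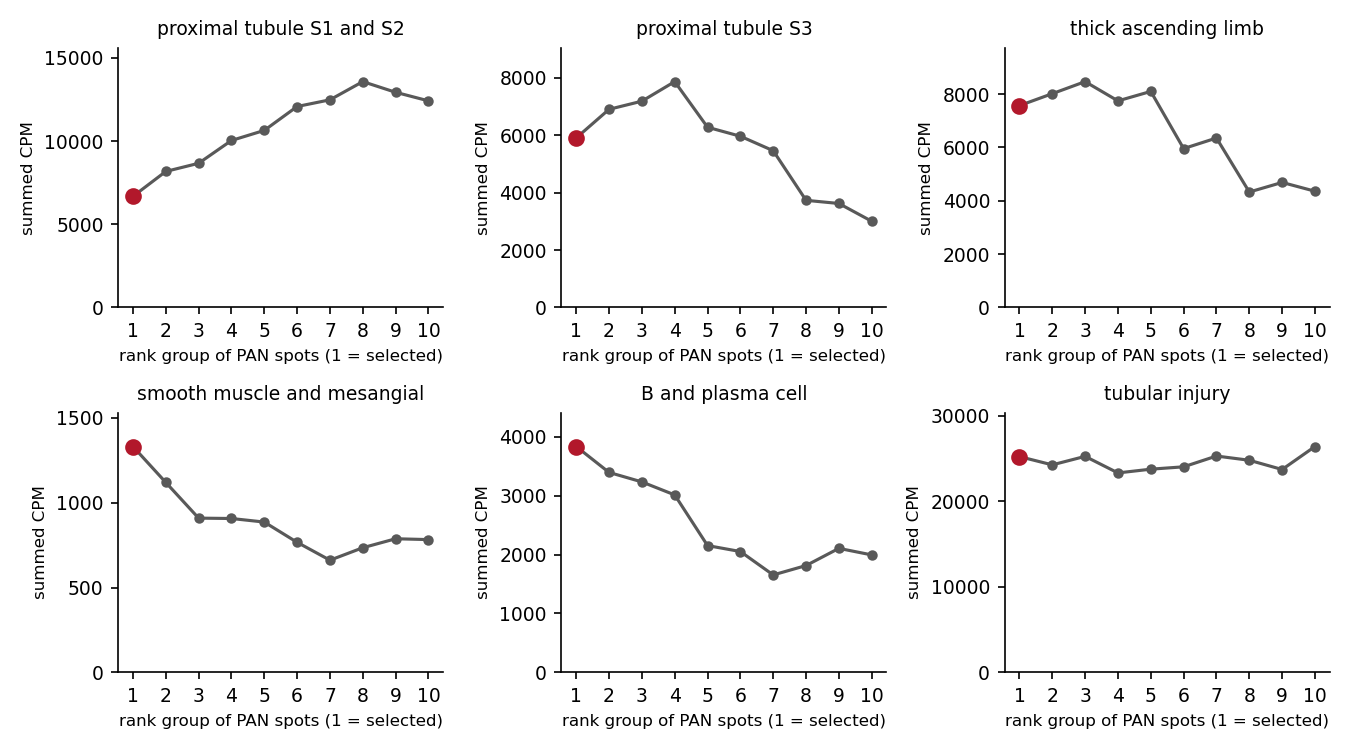
Summed CPM (y axis) of 6 gene lists in 10 groups of PAN spots ordered by their share of Serpine2, Pla2g2a and Alx1 UMIs (x axis), with the selected spots in red as group 1. The S1 and S2 list was lowest in group 1, the smooth muscle and B cell lists highest there, and the S3 list highest in group 4. Spots without a UMI of the 3 genes fill part of group 8 and all of groups 9 and 10 in no set order.

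Contractile genes were among those with the highest ratios, Myh11 first, and for several of them few spots held most UMIs. Of 10 measured smooth muscle and mesangial genes, 7 were higher and 1 was lower, with a median of 0.79. Myh11, the smooth muscle myosin heavy chain, stood at 68.3 CPM in selected spots and 26.6 CPM in the others, 2.57-fold higher (2.11 to 3.12). Cnn1, encoding calponin, was 2.16-fold higher (1.57 to 2.93), Acta2, smooth muscle actin, 1.98-fold (1.70 to 2.29), and Des, desmin, 1.98-fold (1.71 to 2.28). Myl9, a myosin light chain, stood at 332 CPM in selected spots and 169 CPM in the others.

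A few of the 261 spots held most of these UMIs for Myh11, Cnn1, Acta2 and Des. The 10 selected spots with most Myh11 held 100 of its 126 UMIs (79.4%). The same figure was 84% for Cnn1, 58.1% for Acta2 and 50.4% for Des, and 17.2% for Tagln. Myh11 was detected in 13.8% of selected spots and 16.3% of the others. Among the 5% of PAN spots richest in the list were 30 selected spots and 100 others. Without these spots, which were chosen by the list that holds both genes and are therefore bound to lower the ratio, Myh11 had a log2 ratio of -0.49 and Cnn1 of -0.46. The share of the list itself was higher in most selected spots, with a median of 1002 ppm in selected spots and 734 in the others, and 185 of 261 (70.9%) above the median of the others.

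Within PAN, the ratios of Myh11, Cnn1, Acta2 and Des passed 1.5-fold only in rankings that used Pla2g2a. Those of Myl9 and Tagln were above 1 in each single-gene ranking. Pla2g2a was among the selecting genes, and few spots held most of the Myh11 and Cnn1 UMIs. The rankings are therefore a description, and no dependence on Pla2g2a is read from them. Ranked by Pla2g2a alone, the top 261 spots had Myh11 4.12-fold (3.48 to 4.87) and Cnn1 4.02-fold (3.12 to 5.16) above the rest. Ranked by Serpine2 alone, Myh11 had a ratio of 0.516 (0.348 to 0.739), and ranked by Alx1 alone a ratio of 0.728 (0.524 to 0.988). The smooth muscle list had a median of 0.62 by Pla2g2a, 0.08 by Serpine2 and -0.08 by Alx1, and of -0.0088 when Pla2g2a was left out of the ranking. Its summed level was higher in each, at 1420.2 and 815 CPM in the top and other spots by Pla2g2a, 1077 and 845 CPM by Serpine2, and 1042 and 847 CPM by Alx1. Myl9 had ratios of 2.14 by Pla2g2a, 1.29 by Serpine2 and 1.37 by Alx1, and Tagln of 1.601, 1.46 and 1.42. Other cell types moved with the Pla2g2a ranking: the red blood cell list had 3 of 3 genes higher with a median of 1.48, against -0.63 by Serpine2 and -0.33 by Alx1, and 5 of 9 T and NK cell genes were higher. Their part in the contractile result was not tested. Over all genes, 3.94% were higher by Pla2g2a, 3.14% by Serpine2 and 4.23% by Alx1. Only 495 PAN spots held a UMI of Pla2g2a and 391 a UMI of Alx1.

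The selected spots were also divided by Pla2g2a, which is a description, since Pla2g2a was among the genes that chose them. The 126 that held Pla2g2a had 942404 UMIs and a median of 6926.5 per spot, and the 135 that did not had 902341 and a median of 6133. Of 4005 genes measured over both, 48 (1.2%) were higher and 33 (0.824%) lower in the spots with Pla2g2a. Myh11 had 107 UMIs with Pla2g2a and 19 without, 5.39-fold higher (3.29 to 9.31). Cnn1 had 47 and 3, a 15-fold ratio with an interval of 4.83 to 75.3. Acta2 was 2.84-fold (2.07 to 3.95) and Des 3.01-fold (2.21 to 4.17) higher. Without Pla2g2a, Acta2 and Des stood at 58.7 and 59.8 CPM, where the other PAN spots had 57.4 and 61.3 CPM. Myl9 and Tagln stood at 243 and 613 CPM without Pla2g2a, above the 169 and 423 CPM of the other PAN spots.

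The low cortical tubule genes were shared by both sets. Slc5a2 stood at 89.1 CPM in selected spots with Pla2g2a, 65.4 CPM in those without, and 230.4 CPM in the other PAN spots. Slc12a3 stood at 32.9, 37.7 and 134 CPM and Klk1c9 at 57.3, 48.8 and 290.01 CPM in the same 3 sets. Umod differed, with 4973 CPM in spots with Pla2g2a and 7188 CPM in those without, against 5146 CPM in the other PAN spots. Ranked by a single gene, the S1 and S2 list had medians of -0.84 by Serpine2 (11 of 19 genes lower, 3.49% of all genes), -0.48 by Pla2g2a (6 of 19, 2.86%) and -1.02 by Alx1 (13 of 19, 3.96%). The thick ascending limb list had 5 of 8 genes higher by Alx1 alone, with a median of 0.61, none of 8 by Serpine2 and none of 8 by Pla2g2a. Ranked by Alx1 alone, Umod was 1.62-fold higher (1.59 to 1.65).

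**Figure D4:**
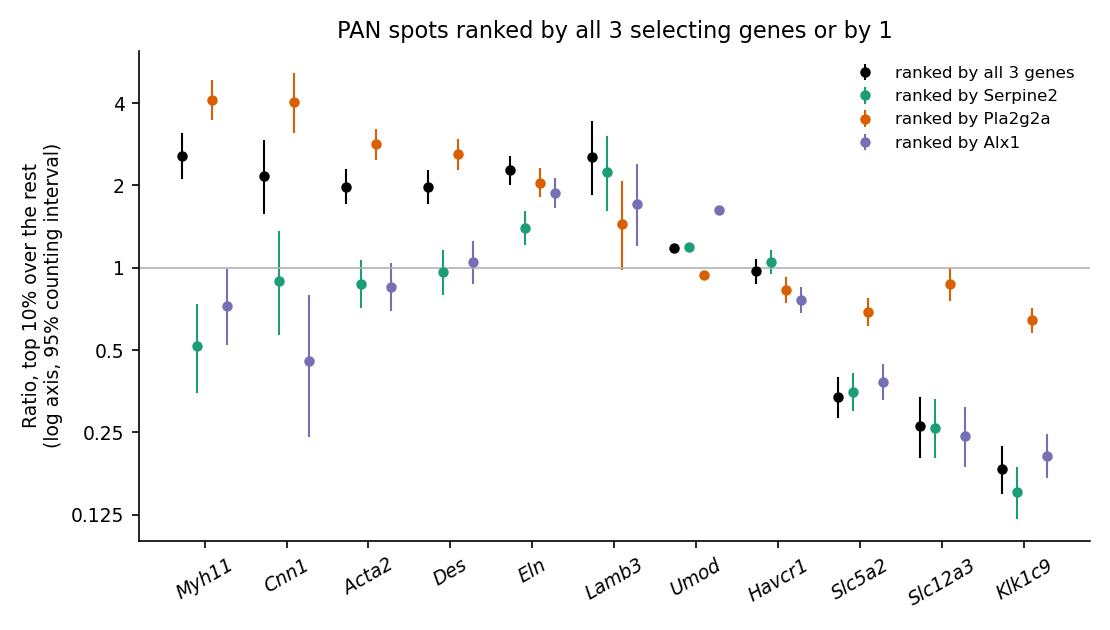
Ratio of CPM (log axis) in the top 10% of PAN spots over the rest, with 95% counting intervals, for 11 genes when spots were ranked by all 3 selecting genes or by 1. Myh11, Cnn1, Acta2 and Des lay above 1 by all 3 genes and by Pla2g2a, and Myh11, Cnn1 and Acta2 below 1 by Serpine2 and by Alx1, while Slc5a2, Slc12a3 and Klk1c9 lay below 1 in each ranking, with Slc5a2 (0.692) and Slc12a3 (0.872) short of 1.5-fold by Pla2g2a.

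Vessel, basement membrane and lymphoid genes were also among those higher. Eln, elastin, stood at 168 CPM in selected spots and 73.8 CPM in the others, 2.27-fold higher (2.01 to 2.57), and had a ratio of 1.40, short of 1.5-fold, by Serpine2 alone, 2.05 by Pla2g2a alone and 1.88 by Alx1 alone. Cldn5, the claudin of endothelial junctions, was 2.13-fold higher (1.75 to 2.57), and was the 1 endothelial gene of 10 past 1.5-fold. Angpt2, the ligand of the endothelial receptor Tek, was 2.11-fold higher, and Sox17, an endothelial transcription factor, 1.92-fold. Lamb3, a laminin chain of epithelial basement membranes, was 2.54-fold higher (1.85 to 3.44), and 3 of 14 basement membrane genes were past 1.5-fold. The other genes among the 20 highest, between 1.88-fold and 2.02-fold, were Tbkbp1, Chst12, Fcho1, Adcy3, Stard13, Irf7, Rasl11b, Trpv6, Mrc2 and Grasp. Each of these 10 fell short of 1.5-fold in 1 to 8 of 20 alternatives, among them Trpv6 and Fcho1 in 4 and Grasp in 8, and so did Sox17 in 3. With all spots reduced to 3000 UMIs, the log2 ratios of Chst12 and Grasp turned to -0.15 and -0.10, and Mrc2 was -0.0145 when ranked by Pla2g2a alone.

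All 6 measured B and plasma cell genes were higher, with a median of 0.69. Ighm, the heavy chain of IgM, stood at 2579 CPM in selected spots and 1521 CPM in the others, 1.70-fold higher (1.65 to 1.75), and Igkc, the kappa light chain, at 1171 and 768 CPM. Cd79b, of the B cell receptor, was 1.63-fold higher, and Mzb1, of plasma cells, 1.51-fold with an interval of 0.857 to 2.51. The 10 selected spots with most of each gene held 29.0% of Ighm, 31.7% of Igkc, 35.2% of Cd79b and 61.9% of Cd79a UMIs. Cd79b was detected in 22.2% of selected spots and 22.2% of the others. Of the selected spots, 188 (72.0%) lay above the median of the others for the list. The median of the list was 0.31 with the other spots weighted to the depth of the selected ones, and it was 0.95 ranked by Pla2g2a alone, 0.30 by Serpine2 alone and -0.0480 by Alx1 alone. Of 9 T and NK cell genes, 2 were higher, Klrd1 and Cd2, and the median was 0.48. No gene of 24 in the fibroblast and matrix list passed 1.5-fold, although 77.4% of selected spots lay above the median of the others.

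**Figure D5:**
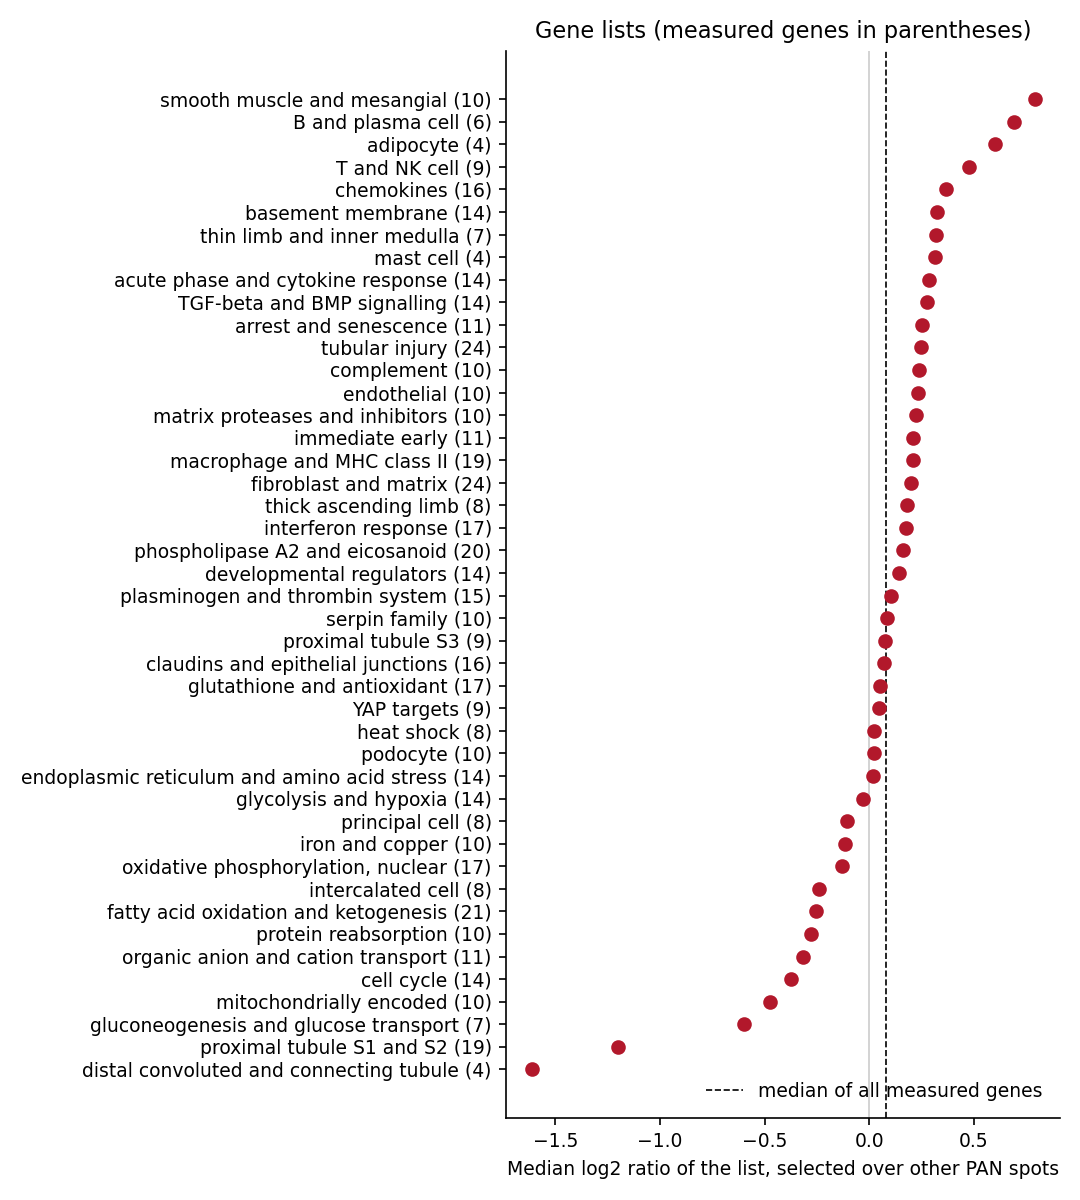
Median log2 ratio of the selected over the other PAN spots for each gene list with at least 4 measured genes, with the number measured in parentheses and the median of all 9843 genes (0.08) as a dashed line. The smooth muscle list (0.79) and the B and plasma cell list (0.69) stood highest, and the distal convoluted and connecting tubule list (-1.61) lowest.

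In the pathways of the selecting genes, most measured genes stayed within 1.5-fold, where 5.13% of all genes were higher and 3.6% were lower. Of 15 plasminogen and thrombin genes, none was higher and 2 were lower, with a median of 0.10. Serpinc1, antithrombin, stood at 31.4 CPM in selected spots and 60.2 CPM in the others, and F3, tissue factor, at 55.8 and 87.5 CPM. Plat and Plau, the plasminogen activators that Serpine2 can inhibit, stood at 142 and 12.5 CPM in selected spots and 132 and 9.99 CPM in the others. Lrp1, a receptor that clears serpin and protease complexes, was 1.46-fold higher (1.32 to 1.60).

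Of 20 phospholipase A2 and eicosanoid genes, 2 were higher and 2 were lower, with a median of 0.16. Pla2r1, a receptor for secreted phospholipases, was 2.10-fold higher (1.22 to 3.43) on 19 UMIs in selected spots. Ptgds, a prostaglandin D2 synthase, was 2.38-fold lower, at 47.2 CPM in selected spots and 112 CPM in the others, and Ptges, a prostaglandin E2 synthase, was 1.71-fold lower. Slco2a1, a prostaglandin transporter, was 1.55-fold higher. Of 14 developmental regulators, Wnt7b, a ligand of the collecting duct, was 2.05-fold higher (1.42 to 2.90) and Osr2 was 1.95-fold lower on 6 UMIs in selected spots, with an interval of the ratio of 0.185 to 1.14. Of 14 cell cycle genes, 5 were lower and none higher, on as few as 3 UMIs in selected spots for Ccnb1 and Bub1.

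Podocyte genes, the first target of puromycin, split. Of 10 measured, 2 were higher and 2 lower, with a median of 0.02. Nphs1, encoding nephrin of the filtration slit, had 10 UMIs in 5 selected spots and 222 UMIs in the others. Robo2, a guidance receptor, was 1.63-fold higher.

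Set against 3 other kinds of spots of the same section, the selected spots held more S3 and thick ascending limb RNA than injury-rich or matrix-rich spots, and more matrix and macrophage RNA than S3-rich spots. Spots in both sets were left out, and the genes that chose either set were not read. The other PAN spots differed from these kinds in the same directions, so the contrasts are not particular to the selected spots. The S3 list summed to 5597 CPM in the other PAN spots, 3265 in Havcr1-rich and 2391 in matrix-rich spots, over genes measured in each comparison. The thick ascending limb list summed to 6467, 4013 and 3377 CPM in those sets. In the other PAN spots and S3-rich spots, the matrix list summed to 6765 and 4673 CPM and the macrophage list to 9893 and 7248. Against 236 Havcr1-rich spots, 460 of 6410 genes (7.18%) were higher and 190 (2.96%) lower in the selected spots. The S3 list was higher in 5 of 7 genes, the thick ascending limb list in 5 of 6, and the S1 and S2 list lower in 11 of 17. Slc4a1, an anion exchanger of red cells and intercalated cells, was 3.48-fold higher and Aqp2, the water channel of principal cells, 2.41-fold higher. Slc7a7, an amino acid transporter, was 4.37-fold lower. The selected spots had a median of 6494 UMIs and the Havcr1-rich spots 9169.5.

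Against 244 S3-rich spots, 1070 of 6845 genes (15.6%) were higher and 530 (7.74%) lower in the selected spots, which had a median of 6366.5 UMIs against 12005. The fibroblast and matrix list was higher in 16 of 16 genes, the macrophage list in 16 of 17, the tubular injury list in 14 of 19 and the smooth muscle list in 6 of 6. Des was 3.79-fold higher, and the lymphoid chemokines Ccl19 and Ccl21 were 3.39-fold and 2.51-fold higher. Prlr, the prolactin receptor, was 5.31-fold lower, and organic anion and cation transport genes were lower in 7 of 9. With all spots reduced to 3000 UMIs, 380 genes were higher.

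Against 236 matrix-rich spots, chosen by Lum, Postn, Ltbp2, Tnc and Col1a1, 361 of 6263 genes (5.76%) were higher and 248 (3.96%) lower. The S3 list was higher in 6 of 7 genes, the thick ascending limb list in 6 of 6, and the fibroblast and matrix list lower in 8 of 17. Kap, a kidney androgen-regulated gene of the proximal tubule, stood at 2188 CPM in the selected and 696 CPM in the matrix-rich spots. Car3, a carbonic anhydrase abundant in fat, was 7.29-fold lower on 34 UMIs in the selected spots. The median was 6494 UMIs in the selected and 8299.5 in the matrix-rich spots.

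Few spots of the other sections reached the PAN cutoff, namely 4 of 2180 in PAN_LS-FMD (0.183%), 8 of 2551 in healthy_LS-FMD (0.314%) and 1 of 2863 in the healthy section (0.0349%). Those sections were deeper or similar, with medians of 14986.5, 8931 and 19541 UMIs, against 8676 in PAN. With every spot reduced to 3000 UMIs, 12.9% of PAN spots held at least 2 UMIs of the 3 genes, against 0.459% in PAN_LS-FMD, 1.10% in healthy_LS-FMD and 0.803% in healthy. Over whole sections, Serpine2 stood at 126 CPM in PAN, 23.1 in PAN_LS-FMD, 24.2 in healthy_LS-FMD and 31.5 in healthy. Pla2g2a stood at 31.2, 0.858, 1.62 and 1.14 CPM and Alx1 at 18.8, 5.69, 11.6 and 5.04 CPM in the same order. The other 2346 PAN spots alone, with 101 CPM of Serpine2 and 19.1 CPM of Pla2g2a, stood above each of the other 3 whole sections.

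The same ranking within each other section also took spots with less S1 and S2 RNA. The median of that list was -1.20 in PAN, -0.38 in PAN_LS-FMD, -0.75 in healthy_LS-FMD and -0.68 in healthy, where 13, 1, 12 and 11 of its genes were lower. Over all genes, 3.6% were lower in PAN, 1.91% in PAN_LS-FMD, 4.35% in healthy_LS-FMD and 2.86% in healthy. The smooth muscle list had medians of 0.79, 0.26, 0.38 and 0.92 in the same order. In healthy_LS-FMD 2 of 8 of its genes were higher and 1 lower (8.4% and 4.35% of all genes) and in PAN_LS-FMD none of 8 (1.75%). In the healthy section 8 of 12 were higher (3.04%), among them Myh11 at 2.63-fold (2.23 to 3.08). Pla2g2a had 67 UMIs over that whole section, and its part in the ranking there was not tested. The thick ascending limb list had medians of 0.18, 0.36, 0.52 and 0.27.

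Against the S3-rich spots of the other sections, read without the S3 genes, the selected spots differed by more genes than against any PAN spots. In the comparison with PAN_LS-FMD, 42.1% of 7068 genes were higher and 14.5% lower, with healthy_LS-FMD 32.3% and 15.2% of 7001, and with healthy 45.9% and 14.6% of 7563. All-gene medians of 0.43, 0.26 and 0.49 went with those shares, and the 3 comparisons share the selected spots. Spp1 stood at 16232 CPM in the selected spots, 92.7 CPM in the PAN_LS-FMD, 296 CPM in the healthy_LS-FMD and 141 CPM in the healthy S3-rich spots. Ighm, at 2579 CPM in the selected spots, stood at 53.7, 62.4 and 14.3 CPM in those sets. Rbp4, the retinol carrier, stood at 7.05 CPM in the selected spots and was 41.5-fold, 29.1-fold and 63.5-fold lower there than in those sets. The other PAN spots stood at 17275 CPM for Spp1, 1521 CPM for Ighm and 10.2 CPM for Rbp4.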

How the data were processed

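Visium sections of 4 rat kidneys, 1 per group, were measured. The deposited matrices hold whole-number UMI counts per gene and spot, which the authors made with Space Ranger, version 2.0.1 for the healthy section and 1.2.1 for the other 3, per the file headers. The genome build and annotation are not given in the sources used here. Of 32402 features, rows that share a symbol were summed to 28312 symbols (409 had several identifiers). Spots under 3000 UMIs were left out. Depth after this was 24664851 UMIs in PAN, 34950565 in PAN_LS-FMD, 25234550 in healthy_LS-FMD and 58563586 in healthy. UMIs were pooled per spot set and scaled to CPM, and ratios carry exact 95% intervals of 2 Poisson counts, which cover counting error only. A gene counted as measured at 100 UMIs, and named genes (the 20 highest and 15 lowest ratios in the main comparison, 8 and 8 in the others, without provisional, mitochondrial, ribosomal protein and haemoglobin symbols) needed 300 UMIs. Some of the genes these rules take are described by their range only. The members and the 46 gene lists were chosen with earlier results of these data known, and the single-gene rankings, the split by Pla2g2a and the motif search after seeing the data. The barcodes of the 4 sections are slide positions: PAN shared 1912 with PAN_LS-FMD, 1948 with healthy_LS-FMD and 2279 with healthy, and they do not mark shared tissue. A few genes of the lists are counted but not reported by name here. No spot coordinates, doublet caller or cell-type estimate was used. The ratio and interval code was tested on simulated counts. Python 3.11.15, numpy 2.4.6, scipy 1.17.1 and pandas 2.3.3 were used.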

Additional observations from a re-analysis of the deposited data

Results flagged for a closer look

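The B and plasma cell list moved opposite ways under the same ranking in 2 sections. Its median log2 ratio was 0.6911 in the PAN section, where all 6 measured genes were higher in the selected spots, and -0.6946 in the healthy_LS-FMD section, where both of its 2 measured genes were lower. The list also had medians of -0.48 in PAN_LS-FMD (3 genes) and -0.25 in healthy (4 genes). The difference between sections was not tested, since each is 1 section, and the lists hold few measured genes outside PAN.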

How the results depend on the processing

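No paired analysis was possible because each group was 1 section and no result comes from a test. The number of genes past the threshold moved most. Against the other PAN spots, the 505 higher and 354 lower genes became 928 and 660 with the top 5% of spots, 238 and 222 with the top 20%, 872 and 665 with a minimum of 30 UMIs, 241 and 179 with a minimum of 300 UMIs, and 49 and 130 at 2-fold. The higher genes alone became 254 with spots reduced to 3000 UMIs, 305 with scaling by the median of ratios, 267 with the other spots weighted to the UMIs of the selected ones, and 309 when ranked by Serpine2 alone, the last 2 added after seeing the data. Against the Havcr1-rich spots, 460 and 190 became 139 and 80 with reduced spots, 948 and 439 with a minimum of 30, and 142 and 82 with a minimum of 300. Against the S3-rich spots, 1070 and 530 became 380 and 320 with reduced spots and 383 and 353 with a minimum of 300, and the higher genes became 678 with the median of ratios and 1894 with a minimum of 30. Against the matrix-rich spots, 361 and 248 became 160 and 88 with reduced spots, 747 and 574 with a minimum of 30, and 133 and 91 with a minimum of 300. Against the S3-rich spots of PAN_LS-FMD, 2979 and 1028 became 970 and 611 with reduced spots and 1789 and 1756 with the median of ratios. Against those of healthy, 3469 and 1102 became 1085 and 672 with reduced spots and 1905 and 1983 with the median of ratios. Against those of healthy_LS-FMD, 2260 and 1066 became 879 and 628 with reduced spots. With reduced spots, the share of spots at the cutoff was 0.803% in healthy and 1.10% in healthy_LS-FMD.

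Of the lists, the median of the S3 list turned to -0.18 and that of the thick ascending limb list to -0.0861 ranked by Pla2g2a alone, and, among others, the intercalated cell, cell cycle, mast cell and red blood cell lists spanned both signs, at -0.42 to 0.12, -0.46 to 0.0099, -0.19 to 0.69 and -0.84 to 1.48. With Pla2g2a left out of the ranking, the log2 ratio was -0.96 for Myh11, -0.65 for Cnn1, -0.17 for Acta2 and -0.13 for Des, and the smooth muscle list had a median of -0.0088. Ranked by Serpine2 alone, they were -0.95, -0.16, -0.19 and -0.0516. Ranked by Alx1 alone, Myh11 was -0.46, Cnn1 -1.13, Acta2 -0.23, the smooth muscle list -0.0811 and the B and plasma cell list -0.0480. Mrc2 was -0.0145 ranked by Pla2g2a alone. Without the 5% of spots richest in smooth muscle genes, Myh11 was -0.49 and Cnn1 -0.46. With reduced spots, Chst12 was -0.15 and Grasp -0.10. The S1 and S2 list stayed negative in every alternative run, between -1.28 and -0.48, and the distal convoluted and connecting tubule list between -1.90 and -0.43. The causes were not tested.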
